A study of Mus musculus with 6 samples.

Results

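The 10 genes described here encode inhibitors of MAP kinase signalling: the dual-specificity MAP kinase phosphatases Dusp1, Dusp2, Dusp4, Dusp5, Dusp6, Dusp10 and Dusp16, the Sprouty protein Spry2, and the Spred proteins Spred1 and Spred2. They were taken by gene symbol, a rule that uses no measured value though it was set with earlier results of these data known, and all 10 were present among the 26835 genes with a value. The question was whether the brakes of the ERK branch and those of the p38 and JNK branches moved alike in macrophages exposed to tumour vesicles. The cells were primary macrophages of wild-type BALB/C mice aged 5 to 8 weeks, grown from marrow for 6 days with M-CSF (25 ng/ml) and 10% serum. One group of 3 libraries received K7M2-EVs (10 µg), extracellular vesicles of the mouse osteosarcoma line K7M2, and the other 3 libraries, called controls, received PBS, each for 24 h. The sources used here do not say whether M-CSF was present during the exposure or whether marrow of several animals was pooled. The submitters describe independent experiments. Where these shared cells, the p-values measure only the spread between these libraries.

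MAP kinases are switched on by phosphorylation of a threonine and a tyrosine in their activation loop, and dual-specificity phosphatases remove both phosphates. The family members differ in which kinase they bind and in where they sit in the cell. Sprouty and Spred proteins act further upstream, on the path from growth factor receptors through Ras to Raf. Many of these genes are themselves transcribed when MAP kinases are active, so that they form feedback loops. In macrophages the ERK branch carries growth signals of the M-CSF receptor, and all branches respond to microbial and inflammatory stimuli.

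Values are FPKM (fragments scaled by exon length and by sequencing depth), which can be compared between genes because they are per length. Spacing of the low values implied 21429400 to 25701900 reads per library. Differences were tested with limma on log2(FPKM + 1) over the 13009 genes that reached 1 FPKM in 3 or more libraries, and a gene is said to have risen or fallen where the Benjamini-Hochberg adjusted p was under 0.05. By that rule 54.0% of all genes tested changed, 18.4% upward and 35.6% downward, and the centre of all log2 fold changes lay at a median of -0.12. Median-of-ratios scaling moved that median to -0.0024 and the calls to 3445 higher and 3376 lower, from 2395 and 4631. The macrophage markers Csf1r, Adgre1, Cd68, Lyz2, Itgam, Fcgr1, Mertk, Cd14 and Spi1 were all expressed, with sums of 4300 to 5192 FPKM in controls and 12820 to 14296 FPKM after exposure, mostly Lyz2, while Cd68 was lower after exposure. No lymphocyte marker (2 of 6 had a row), dendritic or endothelial marker reached 1 FPKM in any library. Summed mesenchymal and osteosarcoma markers stood highest in replicate 2 of each group, and were higher after exposure in each same-numbered pair. They came to 232, 564 and 274 FPKM in controls and 354, 847 and 363 FPKM after exposure. Of the 9 genes of that list that were tested, 1 rose, 1 fell and 7 were not called. Lox rose from 26.8 ± 16.5 to 79.5 ± 11.6 FPKM (limma adjusted p = 0.00962). Runx2, which passed the filter through its PBS libraries alone, fell from 1.51 ± 0.216 to 0.721 ± 0.178 FPKM (limma adjusted p = 0.00488). Summed neutrophil markers were 2.73 to 3.13 FPKM in controls and 17.3 to 26.8 FPKM after exposure, through Mmp8 and Camp, while Ly6g and Mpo stayed near 0. Summed platelet markers were 30.3 to 36.7 FPKM in controls and 128 to 157 FPKM after exposure, mainly through Pf4, with Itga2b and Gp9 near 0. The part of these other-cell markers in the results below was not tested. In bulk RNA, fewer cells of a type and less RNA per cell cannot be told apart.

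Of the 10 members, 6 fell, 2 rose and 2 were not called, where 35.6% of all genes tested fell and 18.4% rose. The median log2 fold change of the members was -0.39. The 6 falls were spread over both branches: Dusp4, Dusp5, Dusp6 and Spry2 of the ERK-linked genes, and Dusp1 and Dusp10 of those linked to p38 and JNK. The 2 rises were Dusp2, whose product acts on ERK and p38, and Dusp16, whose product acts on JNK and p38. Spred1 and Spred2 were the members not called. All 10 passed the filter on low values, Dusp10 with 4 libraries at 1 FPKM or more and the others with 6. In 9 of the 10 the groups did not overlap, where 63.8% of all genes tested showed the same, so this count is a description of the members and no more. Measured against the median of all genes, the falls ran from 0.25 to 1.42 in size and the rises were 1.03 for Dusp2 and 0.65 for Dusp16.

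**Figure D1:**
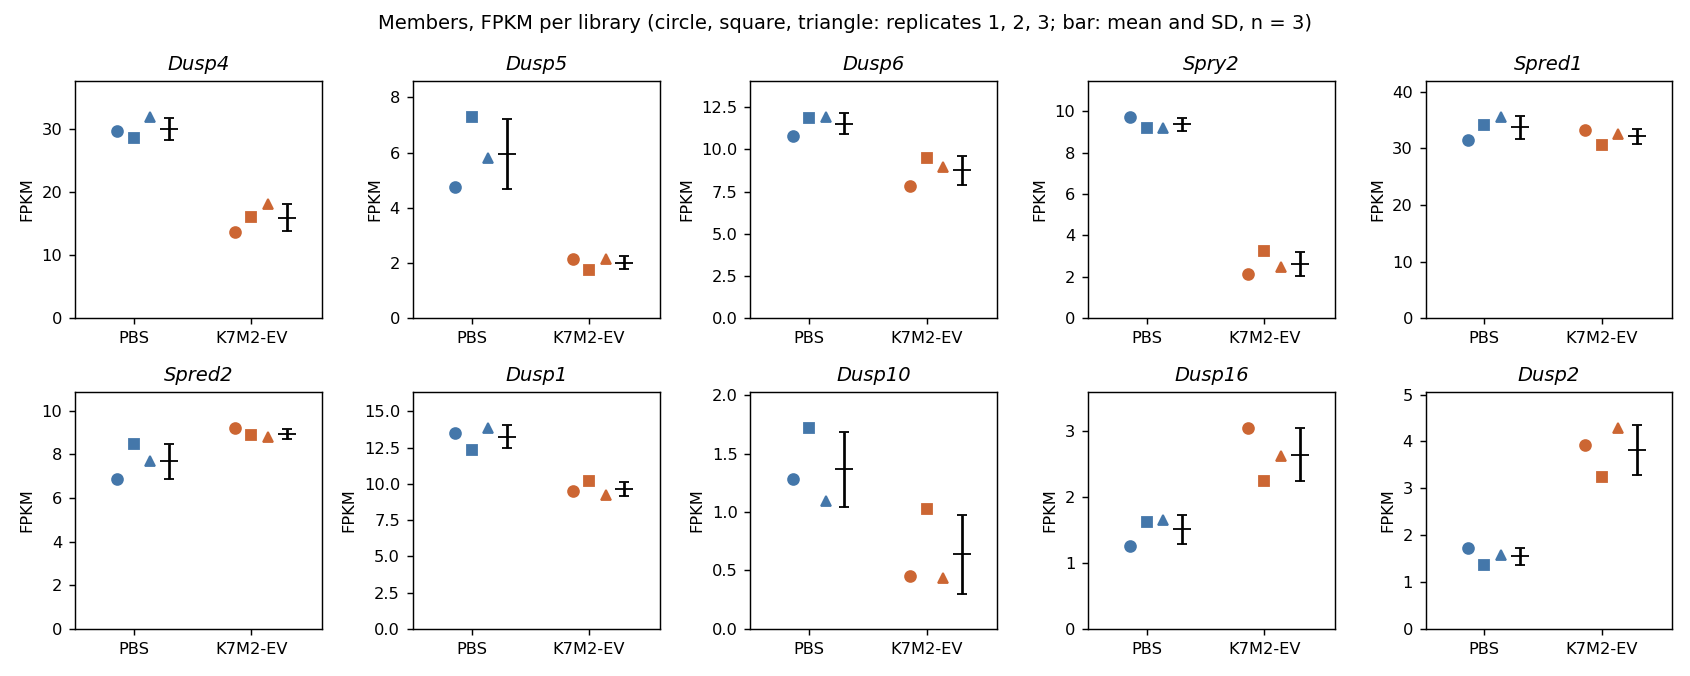
FPKM of each of the 10 members in every library, PBS in blue and K7M2-EV in orange, with the mean and SD (n = 3) as a bar beside the points. The groups are apart in 9 panels and mix in that of Spred1, where PBS runs from 31.4 to 35.5 FPKM and K7M2-EV from 30.7 to 33.3 FPKM.

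Among ERK-linked genes the largest fall was that of Spry2, which encodes an inhibitor of receptor tyrosine kinase signalling toward Ras. Controls held 9.72, 9.21 and 9.20 FPKM and exposed libraries 2.13, 3.24 and 2.47 FPKM. Every vesicle library thus lay far below the tight PBS group. The mean went from 9.37 ± 0.299 to 2.61 ± 0.569 FPKM (SD, n = 3), 3.59-fold lower, with a log2 fold change of -1.53 ± 0.11 (SE, limma adjusted p = 8.37e-05). On GRCm38 the gene lies on the minus strand at chr14:105891947-105896819.

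Dusp5, which encodes a nuclear phosphatase specific for ERK, had the second largest fall. Its values were 4.76, 7.28 and 5.79 FPKM in controls and 2.15, 1.75 and 2.15 FPKM after exposure. The PBS libraries were spread widely, yet the lowest of them stood above every vesicle library. The mean fell 2.95-fold, from 5.94 ± 1.26 to 2.02 ± 0.231 FPKM (log2 fold change -1.19 ± 0.14, adjusted p = 0.000601). The gene (chr19:53529109-53542431, plus strand) shares 547 exonic bases, 22.1% of its exon length, with the antisense gene AC137853.2. The sources used here do not state the strand setting of the counting, so reads of that stretch cannot be assigned to one or the other with certainty.

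Dusp4 was the most abundant phosphatase of the set. Its product is nuclear and acts on ERK and also on JNK. It was at 29.6, 28.5 and 31.8 FPKM in controls and at 13.7, 16.1 and 18.0 FPKM after exposure. The highest vesicle library was well under the lowest PBS library, and the mean went from 30.0 ± 1.70 to 15.9 ± 2.16 FPKM, 1.88-fold lower (log2 fold change -0.88 ± 0.10, adjusted p = 0.000573).

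Dusp6 encodes the cytoplasmic ERK phosphatase often read as a marker of ERK activity, and its fall was the smallest of those called. It was at 10.8, 11.9 and 11.9 FPKM in controls and 7.84, 9.48 and 8.95 FPKM after exposure. The gap between the groups was narrow, and the mean fell 1.32-fold, from 11.5 ± 0.619 to 8.75 ± 0.836 FPKM (log2 fold change -0.36 ± 0.08, adjusted p = 0.00796). After median-of-ratios scaling the log2 fold change was -0.23. Leaving out both replicate 3 libraries ended the call (adjusted p = 0.0831, with a range of 0.00415 to 0.0831 over 18 alternatives).

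The Spred genes, whose products bring the Ras inhibitor neurofibromin to the membrane and block Raf activation, were not called. Spred1, the most abundant member, was at 31.4, 34.2 and 35.5 FPKM in controls and 33.3, 30.7 and 32.5 FPKM after exposure, so the groups mixed. Its log2 fold change was -0.07 with a 95% interval of -0.22 to 0.09 (adjusted p = 0.430), which holds no fall of the size seen for Dusp6. Median-of-ratios scaling turned its sign (0.08), again with no call.

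Spred2 leaned the other way, at 6.85, 8.46 and 7.71 FPKM in controls and 9.21, 8.86 and 8.77 FPKM after exposure. The vesicle libraries were all slightly above the PBS libraries, but the log2 fold change of 0.20 ± 0.08 missed the threshold (adjusted p = 0.0626). It passed after median-of-ratios scaling (0.33, adjusted p = 0.00638), with quantile normalization (0.26, 0.0187), without PBS replicate 2 (0.27, 0.0205) and without both libraries of replicate 2 (0.27, 0.0402). Its adjusted p ranged from 0.00638 to 0.273 over the 18 alternatives.

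**Figure D2:**
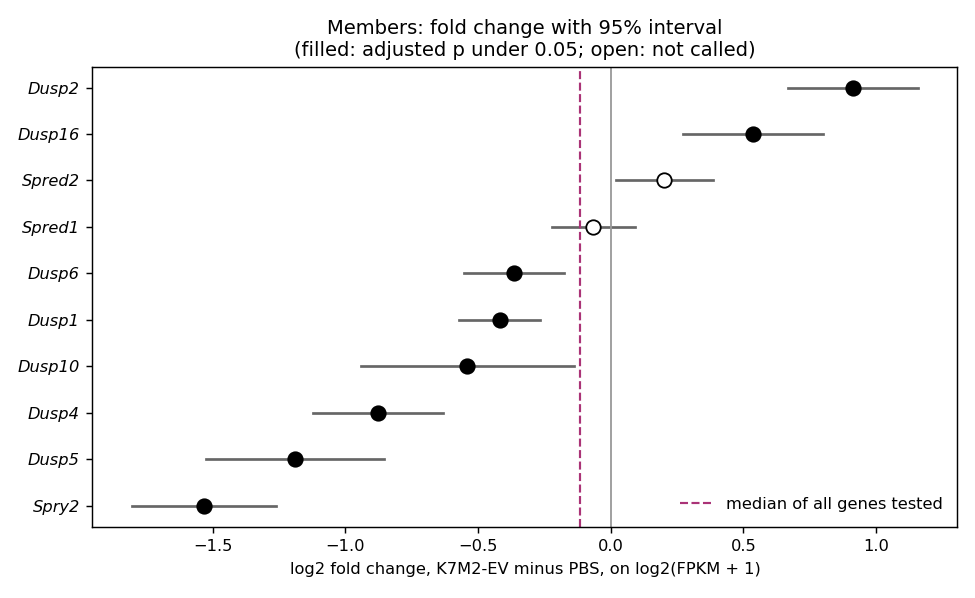
Log2 fold change of each member, K7M2-EV minus PBS on the log2(FPKM + 1) scale, with the 95% interval of limma as a line, filled where the adjusted p was under 0.05. Dusp2 (0.91) and Dusp16 (0.54) lie right of 0 and 6 members lie left of the dashed median of all genes at -0.12, from Dusp6 at -0.36 to Spry2 at -1.53.

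Of the phosphatases linked to p38 and JNK, Dusp1 was by far the most abundant. Its nuclear product prefers p38 and JNK and is known to limit cytokine production by stimulated macrophages. It was at 13.5, 12.4 and 13.9 FPKM in controls and 9.53, 10.2 and 9.20 FPKM after exposure. The groups were clear of each other, with a 1.37-fold fall from 13.2 ± 0.791 to 9.65 ± 0.516 FPKM (log2 fold change -0.42 ± 0.06, adjusted p = 0.00186).

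Dusp16, which encodes a phosphatase of JNK and p38, rose from a low level. It was at 1.25, 1.63 and 1.65 FPKM in controls and at 3.05, 2.25 and 2.63 FPKM after exposure. Each vesicle library exceeded each PBS library, and the mean was 1.75-fold higher, at 2.64 ± 0.399 against 1.51 ± 0.224 FPKM (log2 fold change 0.54 ± 0.11, adjusted p = 0.00643). The pseudocount holds this value down, and voom on approximate reads gave 0.81. Leaving out both replicate 3 libraries ended the call (adjusted p = 0.0585, with a range of 0.00208 to 0.0585 over 18 alternatives).

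Dusp10, which encodes another p38 and JNK phosphatase, had the lowest mean of the members in each group and was the least certain call. It was at 1.28, 1.72 and 1.10 FPKM in controls and at 0.449, 1.03 and 0.437 FPKM after exposure, backed by only 32 to 112 approximate reads. Replicate 2 was the highest in each group, as it was for the mesenchymal markers, and its vesicle library nearly reached the lowest PBS library. The log2 fold change was -0.54 ± 0.17 (adjusted p = 0.0321), and with a pseudocount of 0.1 it was -1.06. The call was lost without PBS replicate 1 (adjusted p = 0.0718), without PBS replicate 2 (0.0913), without K7M2-EV replicate 1 (0.105) and without K7M2-EV replicate 3 (0.107). It was also lost with no filter (0.0623), with quantile normalization (0.139) and without both libraries of replicate 1 (0.170) or 3 (0.124), while leaving out both libraries of replicate 2 kept it (0.00502).

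Dusp2 had the largest rise. Its product is a nuclear phosphatase of ERK and p38, made by activated immune cells. It was at 1.73, 1.36 and 1.57 FPKM in controls and 3.92, 3.25 and 4.29 FPKM after exposure. Exposed libraries all lay well above the controls, and the mean was 2.46-fold higher, at 3.82 ± 0.527 against 1.55 ± 0.182 FPKM (log2 fold change 0.91 ± 0.10, adjusted p = 0.000497). Even so its level with vesicles stayed under those of Dusp1, Dusp4 and Dusp6.

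The order of levels shifted with the changes. With PBS it ran Spred1, Dusp4, Dusp1, Dusp6, Spry2, Spred2, Dusp5, Dusp2, Dusp16 and Dusp10. In that order Spred1 and Dusp4 overlapped, as did Spred2 and Dusp5, and the last 3 genes overlapped their neighbours. With vesicles Spry2 dropped from rank 5 to rank 8 and Dusp5 from rank 7 to rank 9, while Dusp2 moved from rank 8 to rank 6 and Dusp16 from rank 9 to rank 7. There Dusp1, Spred2 and Dusp6 overlapped their neighbours, as did Dusp16, Spry2 and Dusp5. Spred1 stood clear at the top, since Dusp4 had fallen away from it.

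Ratios of members within a library do not depend on how libraries were scaled. Dusp2 over Dusp5, a pair of nuclear phosphatases, was 0.362, 0.187 and 0.272 with PBS and 1.82, 1.86 and 1.99 with vesicles. Dusp5 was thus the more abundant of the pair in every PBS library and Dusp2 in every vesicle library. Dusp16 over Dusp10, the JNK and p38 pair, was 0.977, 0.945 and 1.51 with PBS and 6.79, 2.19 and 6.01 with vesicles, lowest in replicate 2 among the vesicle libraries. Spry2 over Spred1 was 0.309, 0.269 and 0.259 with PBS and 0.0638, 0.106 and 0.0760 with vesicles. That ratio sets the member with the largest fall over one that was not called, so its drop restates the fall of Spry2.

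Summed over Dusp4, Dusp5 and Dusp6, the ERK-linked phosphatases went from 47.4 ± 2.18 to 26.7 ± 2.76 FPKM. The sum of Dusp1, Dusp10 and Dusp16 went from 16.1 ± 0.460 to 12.9 ± 0.618 FPKM. The ratio of the first sum to the second was 2.82, 3.03 and 2.98 with PBS and 1.82, 2.02 and 2.37 with vesicles. With Dusp4 counted as ERK-linked, the first sum therefore lost more than the second in these libraries. That placing matters, since the product of Dusp4 acts also on JNK and the gene went from 30.0 to 15.9 FPKM. With Dusp4 moved to the second sum, both sums fell by a similar share. The difference between the branches thus rests on where Dusp4 is placed. Dusp2, whose product acts on ERK and p38, rose and is in neither sum. Both sums are dominated by 1 gene, Dusp4 and Dusp1. These ratios were formed with the members' values known and carry no test.

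**Figure D3:**
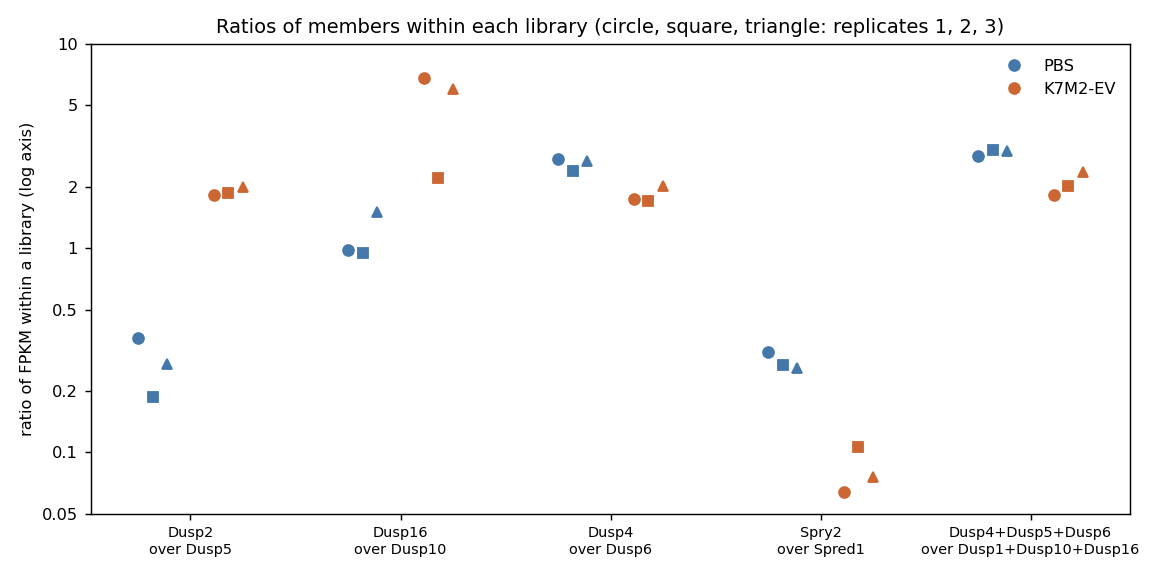
Ratios of FPKM between members within each library on a log axis, PBS in blue and K7M2-EV in orange, with marker shapes for the replicate numbers. No ratio overlaps between groups: Dusp2 over Dusp5 lies at 0.187 to 0.362 with PBS and at 1.82 to 1.99 with vesicles. The ratios were chosen with the members' values known. Dusp2 over Dusp5 and Dusp16 over Dusp10 each set a gene that rose over a gene that fell, so their separation was given by the choice. The same holds for Spry2 over Spred1, the largest fall over a gene not called. Dusp4 over Dusp6 sets a larger fall over a smaller one, as does the ratio of sums, led by Dusp4 and Dusp1.

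The bases before the transcription start are shown for the 2 members with the largest falls, Spry2 and Dusp5, for the one with the largest rise, Dusp2, and for Dusp1, whose promoter is known to respond to cAMP signalling. Sequences are from RefSeq on GRCm38.p6, 250 bases 5′ to 3′ on the gene's strand, and 9 of the 10 members had an entry. Capitals mark the cAMP response element TGACGTCA, its half-site TGACG on either strand and the CArG box, the core of the serum response element.
Spry2, chr14:105896820-105897069, minus strand: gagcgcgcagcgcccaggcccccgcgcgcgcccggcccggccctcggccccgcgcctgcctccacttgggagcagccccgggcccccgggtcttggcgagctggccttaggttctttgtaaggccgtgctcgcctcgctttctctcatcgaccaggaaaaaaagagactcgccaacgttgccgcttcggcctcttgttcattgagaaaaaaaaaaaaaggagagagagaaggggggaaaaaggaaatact
Dusp5, chr19:53528895-53529144, plus strand: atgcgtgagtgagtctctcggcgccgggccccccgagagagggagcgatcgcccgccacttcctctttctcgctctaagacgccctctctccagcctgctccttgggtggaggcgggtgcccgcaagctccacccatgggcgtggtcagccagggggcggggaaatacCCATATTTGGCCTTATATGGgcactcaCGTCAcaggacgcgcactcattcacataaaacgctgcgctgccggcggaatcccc
Dusp2, chr2:127335909-127336158, plus strand: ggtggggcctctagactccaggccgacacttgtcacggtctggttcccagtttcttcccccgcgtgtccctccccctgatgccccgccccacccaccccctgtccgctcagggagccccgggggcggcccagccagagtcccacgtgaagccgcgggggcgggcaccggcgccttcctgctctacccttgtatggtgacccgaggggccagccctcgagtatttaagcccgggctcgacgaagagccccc
Dusp1, chr17:26508473-26508722, minus strand: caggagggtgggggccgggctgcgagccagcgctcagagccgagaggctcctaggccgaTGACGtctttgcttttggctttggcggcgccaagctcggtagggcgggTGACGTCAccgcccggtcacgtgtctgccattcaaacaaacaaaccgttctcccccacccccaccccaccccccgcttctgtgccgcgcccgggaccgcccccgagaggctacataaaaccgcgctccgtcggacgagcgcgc

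Dusp5 held a pair of adjoining CArG boxes, which begin at positions -82 and -72 from the transcription start, and a half-site at -55. A CArG box was found in 1.47% of all 32851 windows of the same length, and in no other member's window. Dusp1 held the full cAMP response element at position -143 from the start and a further half-site at position -191. The full element, which contains the half-site on each strand, occurred in 1.55% of windows. Half-sites occurred in 17.8% of windows and in 4 members: Dusp1 and Dusp5, which fell, Dusp16, which rose, and Spred2, which was not called. Neither the AP-1 site TGANTCA (6.75% of windows) nor the NF-κB consensus (7.25%), searched on both strands, matched in any of the 9 members. A match is a description of letters only.

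Of the 9 other phosphatases tested in the lists of typical and atypical family members, 5 fell and 4 were not called, where 35.6% of all genes tested fell. The falls include Dusp9, which entered the test only through the group where it is high. Family members too low to test are left out, so the count is a description and no more. Of the remaining typical MAP kinase phosphatases, Dusp7 and Dusp9, which encode cytoplasmic ERK phosphatases, fell. Dusp7 went from 10.2 ± 0.898 to 4.48 ± 0.392 FPKM (log2 fold change -1.03 ± 0.08, adjusted p = 0.000121). Dusp9 went from 2.93 ± 0.144 to 0.510 ± 0.149 FPKM (-1.39 ± 0.09, adjusted p = 4.90e-05), and it passed the filter through its PBS libraries alone. Its mean was 5.75-fold lower, and the log2 fold change reached -2.55 over the alternatives.

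Of 14 atypical dual-specificity phosphatases, 12 had a row and 7 were tested, with 3 lower, none higher and 4 not called (median -0.23). Dusp3, which encodes a small phosphatase of ERK and JNK, was nearly as abundant as Dusp4 with PBS and fell from 28.3 ± 1.43 to 6.85 ± 0.294 FPKM (log2 fold change -1.90 ± 0.06, adjusted p = 3.90e-06). Its fall was larger than that of any member. Dusp22, linked to JNK signalling, went from a mean of 3.54 ± 0.269 FPKM to a level 2.73-fold lower (-0.98 ± 0.08, adjusted p = 0.000128). Dusp23 fell by 0.30 on the log2 scale (adjusted p = 0.0156), and was no longer called when scaled by median of ratios (0.0662) or by quantiles (0.392), or when both replicate 2 (0.0652) or replicate 3 (0.110) libraries were left out.

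Of the 4 other Sprouty and Spred genes only Spry4 passed the filter, through its PBS libraries alone. It was at 1.09, 2.05 and 1.04 FPKM in controls and 0.733, 0.649 and 0.734 FPKM after exposure. PBS replicate 2, the PBS library with the most mesenchymal marker signal, stood apart. K7M2-EV replicate 2, with the most such signal of all libraries (847 FPKM), had the lowest Spry4 value. A link to that signal was not tested. The log2 fold change was -0.46 ± 0.16 (adjusted p = 0.0490), and the call was lost in 11 of 18 alternatives, the replicate block (0.0572) among them, with adjusted p from 0.0307 to 0.350. Among these alternatives were leaving out PBS replicate 1 (0.0552) and K7M2-EV replicate 1 (0.108), 2 (0.116) or 3 (0.111).

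**Figure D4:**
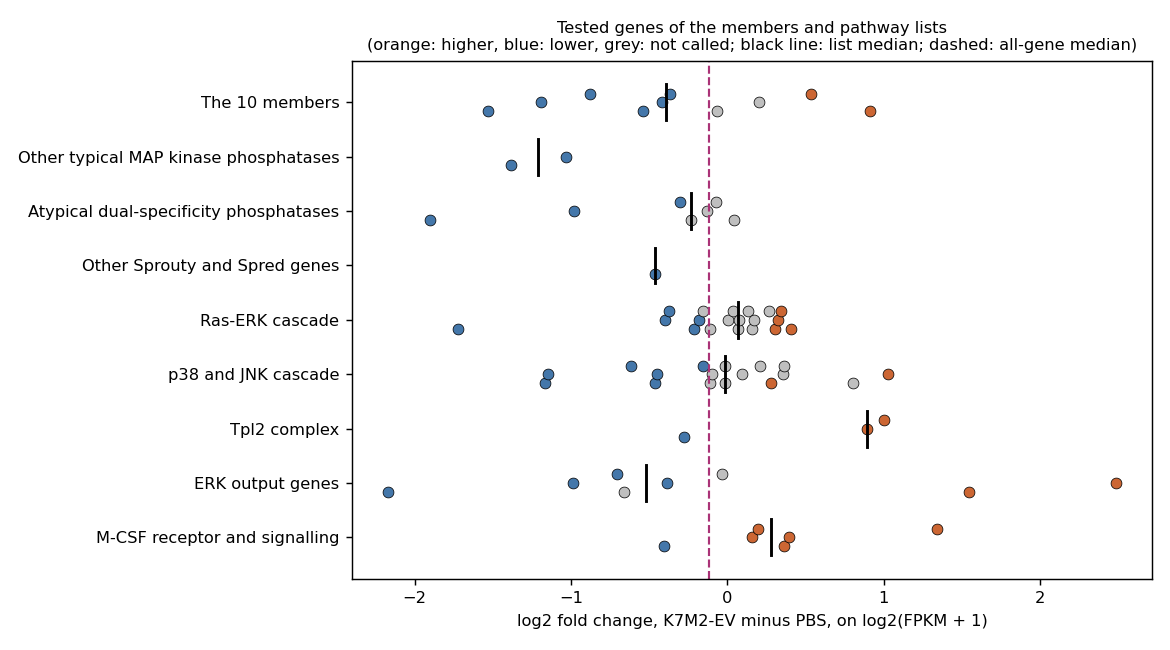
Log2 fold changes on the log2(FPKM + 1) scale of the 10 members and of the tested genes of 8 pathway lists, 1 point per gene, orange where higher, blue where lower and grey where not called, with list medians as black lines. The members' median (-0.39) and that of the Ras-ERK cascade (0.07) lie on opposite sides of the dashed median of all genes (-0.12).

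Of 19 genes of the Ras-ERK cascade, on which these brakes act, 4 rose, 5 fell and 10 were not called (median 0.07). Over all genes tested 18.4% rose and 35.6% fell, so these counts describe the list and no more. After median-of-ratios scaling 11 of the 19 were higher and 3 lower, and with quantile normalization 7 and 5. Mapk3, which encodes a kinase of the ERK branch and was named after its values were seen, fell by 0.22 on the log2 scale (adjusted p = 0.0466). That call was lost in 11 of 18 alternatives (adjusted p from 0.0196 to 0.502), among them median-of-ratios scaling (-0.07) and leaving out any single exposed library (replicate 1, 0.101; replicate 2, 0.127; replicate 3, 0.0744) or the control of replicate 1 (0.0792) or of replicate 3 (0.126). Map2k2, which encodes the ERK kinase MEK2, rose by 0.41 (adjusted p = 0.00117), as did the Ras activator gene Sos1 by 0.35 and Hras by 0.32. The Hras call ended when both replicate 1 (0.0556) or replicate 3 (0.0761) libraries were left out. The scaffold gene Ksr1, also named after its values were seen, rose by 0.30 (adjusted p = 0.0128). It was not called without K7M2-EV replicate 3 (0.0587) or when both replicate 2 (0.0762) or replicate 3 (0.136) libraries were left out.

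A large fall in this cascade was found in a brake. Rasa1, which encodes a GTPase-activating protein that switches Ras off, was at 32.9, 28.8 and 29.9 FPKM in controls and 9.08, 8.25 and 8.33 FPKM after exposure (log2 fold change -1.72 ± 0.07, adjusted p = 7.62e-06). Its groups were widely apart. Nf1, which encodes neurofibromin, the partner of Spred proteins, went from 9.15 ± 0.366 to 6.83 ± 0.227 FPKM (-0.37 ± 0.05, adjusted p = 0.00123). Nras fell by 0.40 (adjusted p = 0.00140).

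In the p38 and JNK cascade 17 of 21 genes were tested, and 2 rose, 6 fell and 9 were not called (median -0.01). The shares over all genes tested were 18.4% higher and 35.6% lower. Scaled by median of ratios or by quantiles, 5 genes of this cascade were higher and 5 lower. Mapkapk2, which encodes a p38 substrate kinase that stabilises cytokine mRNAs, went from 53.9 ± 1.75 to 111 ± 12.0 FPKM (log2 fold change 1.03 ± 0.09, adjusted p = 0.000161). Its relative Mapkapk3 moved the other way, from 3.95 ± 0.788 to 1.21 ± 0.0370 FPKM (-1.15 ± 0.12, adjusted p = 0.000399). Map3k1 and Map2k3, which encode kinases upstream of JNK and of p38, fell by 1.17 and 0.61. Map3k3 rose by 0.28 (adjusted p = 0.00779), which was not called once both replicate 3 libraries were left out (0.0915).

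The p38α gene Mapk14, named after its values were seen, was not called. Of 18 alternatives 1 gave a call, median-of-ratios scaling (log2 fold change 0.94, limma adjusted p = 0.0321). It was at 15.9, 11.1 and 10.8 FPKM in controls and 18.3, 35.4 and 17.3 FPKM after exposure, with K7M2-EV replicate 2 far above the others (adjusted p = 0.0541).

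Map3k8, which encodes Tpl2, the kinase that links inflammatory receptors to ERK, was at 3.98, 3.04 and 3.24 FPKM in controls and 8.51, 7.39 and 7.64 FPKM after exposure. Each exposed library lay far above every control (log2 fold change 1.00 ± 0.09, adjusted p = 0.000243). Nfkb1, whose p105 product holds Tpl2 inactive, went from 6.90 ± 0.0753 to 13.7 ± 0.885 FPKM (0.89 ± 0.06, adjusted p = 4.89e-05). Tnip2, which encodes another partner of Tpl2, fell by 0.28 (adjusted p = 0.0197). That call was lost in 8 of 18 alternatives (adjusted p from 0.0103 to 0.161), among them leaving out PBS replicate 1 (0.0601) or 3 (0.0569) and K7M2-EV replicate 1 (0.0657) or 2 (0.0581).

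Of 8 tested genes known as outputs of ERK signalling, 2 rose, 4 fell and 2 were not called (median -0.52). Among all genes tested 18.4% rose and 35.6% fell. Ier3, an early response gene, went from 4.07 ± 0.426 to 27.5 ± 3.29 FPKM (log2 fold change 2.49 ± 0.10, adjusted p = 9.54e-06). Phlda1 rose by 1.54 (adjusted p = 0.000260). In contrast Ccnd1, the cyclin D1 gene, fell from 41.3 ± 12.2 to 8.19 ± 1.36 FPKM (-2.17 ± 0.23, adjusted p = 0.000417), and Fos from 29.2 ± 0.448 to 17.5 ± 1.52 FPKM (-0.70 ± 0.07, adjusted p = 0.000301). Egr1, an early response gene that passed the filter through its PBS libraries alone, fell by 0.99 (adjusted p = 0.0114), which was not called once both replicate 1 libraries were left out (0.0635). Etv5, named after its values were seen, fell by 0.38 (adjusted p = 0.00270) and lost its call without the replicate 3 pair (0.0545).

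Upstream, 5 of 6 genes of the M-CSF receptor list rose and 1 fell (median 0.28), where 18.4% of all genes tested rose. The count of 5 is not firm. It was 2 without K7M2-EV replicate 1 or 3, 3 without PBS replicate 1 or K7M2-EV replicate 2, and 3 with no filter. Pik3r1 (0.16, adjusted p = 0.0370) and Inpp5d (0.20, adjusted p = 0.0448), both named after their values were seen, lost their calls in 10 and 11 of 18 alternatives. Ptpn6, which encodes the phosphatase SHP-1, went from 32.2 ± 3.02 to 83.2 ± 12.0 FPKM (log2 fold change 1.34 ± 0.12, adjusted p = 0.000178). Ptpn11, which encodes SHP-2, a positive regulator of Ras, rose by 0.40 (adjusted p = 0.00140). The receptor gene Csf1r was at 190, 157 and 190 FPKM in controls and 234, 211 and 244 FPKM after exposure. Its rise of 0.36 (adjusted p = 0.0219) lost its call without K7M2-EV replicate 1 (0.0699) or 3 (0.0775) and without both libraries of replicate 1 (0.0865) or 3 (0.109). Cbl, which encodes a ubiquitin ligase of the receptor, fell by 0.41 (adjusted p = 0.00154).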

How the data were processed

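RNA of 3 PBS and 3 K7M2-EV cultures was sequenced. The authors deposited 1 table of 26883 rows per library. File headers name no unit; the deposited values were taken as FPKM because value times exon length stepped in whole reads and sums differed between libraries. Per the submitters' processing notes the build was GRCm38, and StringTie 1.3.4b, HISAT2 2.1.0, CASAVA 1.8 and edgeR were used, in roles they do not give here. A row lacking a value (1) was dropped, and the highest of repeated symbols was kept (47 dropped). Exon lengths came from GENCODE M21. FPKM times length fell within 0.1 of a whole read in 72.3% to 73.1% of values worth at most 20 reads (chance: 20%), which gave the implied totals. Genes that reached 1 FPKM in 3 or more libraries entered limma 3.58.1 (R 4.3.3, trend and robust settings) as log2(FPKM + 1), with Benjamini-Hochberg adjustment at 0.05. This scale understates changes of low genes. The steps were tested on simulated data with few genes changed, up or down at random. That setting is unlike these data, where 54.0% of genes tested changed, mostly downward, so it does not test the scaling. Same-numbered libraries deviated together (correlations of 0.317, 0.294 and 0.209 across genes), so the numbers were taken to pair them, from the data. The main fits ignored this pairing, which entered only as the replicate block among the alternatives. The members and lists were chosen with earlier results of these data known. All members were named, and in each pathway list up to 3 called genes per direction with a mean of at least 1 FPKM. Other genes are said to be named after their values were seen. Alternatives covered pseudocounts, filters, scalings, voom on approximate reads, the replicate block and left-out libraries. Python 3.11.15 with pandas 2.3.3 and matplotlib 3.10.9 made the tables and plots.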

Additional observations from a re-analysis of the deposited data

How the results depend on the processing

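Of 18 alternatives, none changed the direction or the call of Spry2, Dusp1, Dusp2, Dusp4 or Dusp5. Spred1, which was not called, turned from -0.07 to 0.0779 after median-of-ratios scaling and was not called there either. Members called higher numbered 2 and became 1 without both libraries of replicate 3, where all genes called numbered 1529 higher and 2844 lower, from 2395 and 4631. They became 3, through Spred2, with median-of-ratios scaling, quantile normalization, and without PBS replicate 2 or both libraries of replicate 2. Members called lower numbered 6. Dusp10 lost its call in 8 of 18 alternatives, which left 5, or 4 without both libraries of replicate 3, where Dusp6 was lost too. With the replicate number as a block, 2 members were higher and 6 lower, as without it, and the block changed the call of 1 other named gene, Spry4. Median-of-ratios scaling gave 3445 genes higher and 3376 lower, and quantile normalization 3135 and 3282. Leaving out single libraries gave 1982 to 2450 genes higher and 3974 to 4384 lower. Scaling thus decides the balance of calls over all genes but not the direction of any member that was called. Depth limits Dusp10 and Dusp2 most, at 32 and 59 approximate reads in their lowest library, a counting error of 17.7% and 13.1%.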

Other observations

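Several relatives of the members were too low to be tested and are given as values. Dusp8, which encodes a phosphatase of JNK and p38, was at 0.796, 0.699 and 0.743 FPKM in controls and a mean of 0.377 FPKM after exposure, and the groups did not overlap. Dusp18, an atypical family member, was at 0.808, 0.872 and 0.752 FPKM in controls and 0.224, 0.416 and 0.266 FPKM after exposure. Again there was no overlap, which 63.8% of all genes tested showed as well, so this is a description and no more. Among other untested relatives the groups overlapped for Dusp14, Dusp15, Spry3 and Spred3, but not for Dusp13 and Dusp27. Spry1 did not separate the groups. It was at 0.410, 1.13 and 0.433 FPKM in controls and 0.412, 1.08 and 0.362 FPKM after exposure, highest in replicate 2 of each group, where the mesenchymal and osteosarcoma markers were highest as well. Epha4, a receptor gene of the ERK output list, was at 0.175, 0.173 and 0.118 FPKM in controls and 1.16, 0.967 and 1.06 FPKM after exposure, opposite in direction to Epha2 of the same list, at 0.937, 2.07 and 1.45 FPKM and at 0.193, 0.590 and 0.320 FPKM.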
